A study of Mus musculus with 14 samples.

Results

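The BAF complex, the mammalian form of SWI/SNF, is an ATP-driven machine that slides and evicts nucleosomes. RNA of 10 of its genes was examined in newborn mouse cortex with a conditional knockout of Auts2 and in RNA pulled down with AUTS2 protein. The members were chosen by name: the ATPases Smarca2 and Smarca4, the core subunits Smarcb1, Smarcc1, Smarcc2 and Smarce1, the AT-rich interaction domain (ARID) subunits Arid1a, Arid1b and Arid2, and the zinc finger protein Bcl11a. All 10 of the 10 were found among the 51626 gene symbols of each of the 3 tables, and each value is the sum of FPKM (fragments corrected for the length of the transcript and the size of the library) over the transcripts of a symbol. All 10 passed the filter of a mean of at least 1 FPKM in every comparison.

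The libraries, 14 in all, came from mice at postnatal day 0.5. Frontal (rostral) cortex was taken from 4 wild type C57BL/6J animals and from 4 conditional knockouts (cKO) whose exon 15 of Auts2 was flanked by loxP sites on both alleles, with Cre recombinase expressed from Emx1. Emx1 marks the dorsal progenitors that give rise to excitatory neurons and glia, so interneurons, vessels and microglia of the cKO keep an intact gene. Floxed animals without Cre were not analysed here. For RNA immunoprecipitation (RIP), cortex of C57BL/6J neonates, 2 pooled per replicate, was divided into a pull-down with antibody to the AUTS2 C terminus, a pull-down with IgG, and the 10% input. There were 2 such matched trios, A and B, and this tissue carried no Auts2 deletion.

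A BAF complex holds 1 ATPase, either BRM (Smarca2) or BRG1 (Smarca4), on a scaffold of the paralogs Smarcc1 and Smarcc2, with Smarcb1 and Smarce1 at its core. Arid1a or Arid1b marks the canonical complex, while Arid2 belongs to the related PBAF complex. As neural progenitors become neurons, the complex exchanges several subunits, among them Actl6a for Actl6b and Ss18 for Ss18l1. In humans, variants in many of these genes cause Coffin-Siris syndrome and related intellectual disability, and ARID1B is among the genes most often found in autism.

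Auts2 RNA, the check of the labels, stood at 55.9 to 92.2 FPKM in wild type against 29.8 to 35.2 FPKM in the cKO, with no overlap. Summed FPKM per library ran from 282029 to 340979, and the read depth is unknown, so no counting interval can be given. Wild type 1 and 2 resembled each other more than the other libraries, and cKO 1 stood apart. Markers of cortical neurons summed to 667 to 725 FPKM in wild type against 613 to 705 FPKM in the cKO over 7 genes. One of these, Tubb3, was listed at 0 in every frontal cortex library. The column of cKO 4 was matched by its library number, since its short name differs from the label's, and values of cKO 4 depend on this match.

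In frontal cortex the BAF genes were all well expressed, at wild type means from 16.3 to 122 FPKM. Smarcc2 and Smarca2 stood highest, at means of 122 ± 7.63 and 112 ± 5.94 FPKM (SD, n = 4 wild type libraries), and their ranges overlapped. Smarca4 (64.2 FPKM), Smarcb1 (63.5 FPKM), Bcl11a (62.3 FPKM) and Smarce1 (57.6 FPKM) formed the next tier. The range of Smarce1, 56.8 to 58.7 FPKM, lay under that of Bcl11a, 59.3 to 64.2 FPKM, whereas Smarca4, Smarcb1 and Bcl11a could not be ordered beyond their spread. Smarcc1 (41.4 FPKM), Arid1a (34.5 FPKM), Arid2 (20.8 FPKM) and Arid1b (16.3 FPKM) followed in that order, and the ranges of these neighbours did not overlap. FPKM is scaled per length, so these levels can be set side by side between genes. The value of Smarca2 sums many short transcripts, and its full-length ones held 40.2% to 47.6% of it in wild type.

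None of the 10 BAF genes passed the test between cKO and wild type. The comparison asks what the conditional knockout of Auts2 does to RNA levels in the newborn cortex. It called 0.0235% of the 12786 genes tested (limma on log2(FPKM + 1), Benjamini-Hochberg adjusted p under 0.05 over all genes, two-sided). An unadjusted p under 0.05 was found for 1 member, Bcl11a, against 7.91% of all genes, and limma without its variance trend called 0 members too. Of the members 2 had a positive log2 fold change, with a median of -0.03 against 0.001 for all genes. For 0 of the 10 were the groups without overlap, against 4.41% of all genes. A lower level in bulk tissue can come from fewer cells of a type or from less RNA per cell, which cannot be told apart here.

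The ATPases overlapped between the genotypes. Smarca2, the BRM ATPase that gains ground in differentiated cells, lies on chromosome 19 at 26605050 to 26778322 (GRCm38, plus strand). It stood at 109.5, 107, 120.5 and 113 FPKM in wild type 1 to 4 and at 114, 112, 102 and 114 FPKM in cKO 1 to 4. The groups overlapped throughout, and the log2 fold change was -0.02 (SE 0.06, adjusted p = 0.908, limma).

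Smarca4 encodes BRG1, the ATPase that neural progenitors require, and lies on chromosome 9 at 21616169 to 21704230 (plus strand). Wild type 1 to 4 gave 54.0, 59.8, 72.4 and 70.4 FPKM and cKO 1 to 4 gave 53.1, 76.1, 75.5 and 73.8 FPKM. The low libraries were wild type 1, wild type 2 and cKO 1, and the other 5 stood at 70.4 FPKM or more. The log2 fold change was 0.11 (SE 0.12, adjusted p = 0.772, limma).

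**Figure D1:**
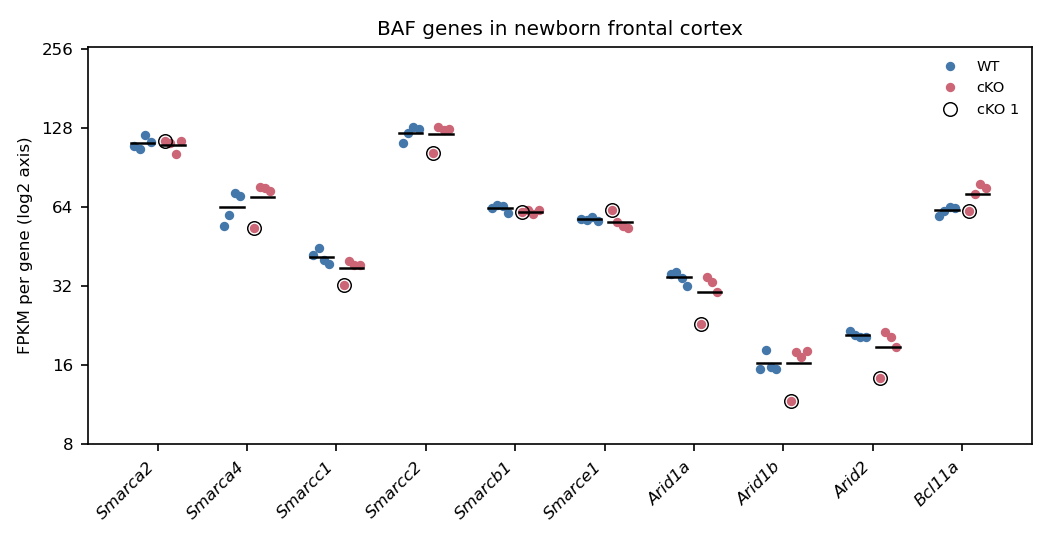
FPKM (log2 axis) of the 10 BAF genes in the 8 frontal cortex libraries, 1 point per library with black lines at group means (n = 4 each). The groups overlap for every gene, and the circled library cKO 1 is the lowest of 8 for Smarca4, Smarcc1, Smarcc2, Arid1a, Arid1b and Arid2.

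The core subunits Smarcb1 and Smarce1 differed by less than the spread between libraries. Smarcb1 encodes the SNF5 (BAF47) subunit, which is lost in rhabdoid tumours, and lies on chromosome 10 at 75896769 to 75921617 (minus strand). Its 8 values lay between 60.3 and 65.3 FPKM (log2 -0.05, SE 0.06, adjusted p = 0.792, limma). Smarce1 encodes BAF57, an HMG-box DNA-binding subunit, and lies on chromosome 11 at 99209047 to 99231017 (minus strand). Its values were 56.8 to 58.7 FPKM in wild type against 53.1 to 62.2 FPKM in the cKO, with cKO 1 the highest of all 8 (log2 -0.03, adjusted p = 0.862, limma). The processed pseudogene Smarce1-ps1 stood at no more than 1.23 FPKM in any library.

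The scaffold paralogs Smarcc1 (BAF155, chromosome 9 at 110117708 to 110240178, plus strand) and Smarcc2 (BAF170, chromosome 10 at 128459248 to 128490482, plus strand) also overlapped between genotypes. In mice BAF170 limits cortical size by holding back intermediate progenitors, and it takes the place of BAF155 in the same complex. Smarcc1 stood at 42.1, 44.5, 40.3 and 39.0 FPKM in wild type against 32.3, 39.9, 38.6 and 38.7 FPKM in the cKO (log2 fold change -0.15, SE 0.08, adjusted p = 0.641, limma). Dhx30, at 39.0 to 47.8 FPKM in these libraries, overlaps its 5′ end on the opposite strand, and no source used here says whether counting used strand. Smarcc2 stood at 112 to 129 FPKM in wild type against 103 to 129 FPKM in the cKO (log2 fold change -0.02, adjusted p = 0.933, limma).

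The ARID subunits target the complex to DNA. Arid1a (chromosome 4 at 133679008 to 133756769, minus strand) stood at 35.5, 36.3, 34.4 and 32.0 FPKM in wild type against 23.0, 34.7, 33.2 and 30.3 FPKM in the cKO. The first cKO library was far below the others, and the log2 fold change was -0.20 (SE 0.11, adjusted p = 0.641, limma). Arid1b (chromosome 17 at 4994332 to 5347656, plus strand) stood at 15.4 to 18.4 FPKM in wild type against 11.7, 17.9, 17.2 and 18.2 FPKM in the cKO (log2 fold change -0.02, SE 0.13, adjusted p = 0.971, limma). Arid2 (chromosome 15 at 96287518 to 96404992, plus strand) stood at 20.5 to 21.6 FPKM in wild type against 14.3, 21.5, 20.5 and 18.8 FPKM in the cKO (log2 fold change -0.16, SE 0.11, adjusted p = 0.661, limma).

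Bcl11a encodes a zinc finger transcription factor that binds BAF and specifies deep-layer cortical neurons, and is known for silencing fetal globin in blood. It lies on chromosome 11 at 24078056 to 24174123 (plus strand). Wild type 1 to 4 gave 59.3, 61.9, 64.2 and 63.6 FPKM and cKO 1 to 4 gave 61.6, 71.7, 78.5 and 75.7 FPKM. In cKO 2, 3 and 4 it stood above every wild type library, and in cKO 1 it fell within their range. Its log2 difference was 0.20 (SE 0.08, unadjusted p = 0.0223, adjusted p = 0.628, limma), which did not pass. Its range over 19 other settings was 0.16 to 0.27, none of them called.

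Its paralog Bcl11b, which is expressed in corticospinal and striatal neurons, had the largest fold change among the 3 other BAF genes with an unadjusted p under 0.05, at 36.2 FPKM in the cKO against 30.7 FPKM (log2 0.24, adjusted p = 0.628, limma). Brd7 of PBAF stood at 23.1 and 20.3 FPKM, and Bcl7a at 46.7 and 52.7 FPKM. Summed over 6 striatal marker genes the levels were 38.0 to 46.2 FPKM in wild type against 39.7 to 60.7 FPKM in the cKO, and over 6 interneuron genes 145 to 179.6 and 174 to 307 FPKM. The part of such cells in the Bcl11a and Bcl11b values was not tested. Of 21 other BAF subunit genes, 9 CHD remodeller genes and 14 genes of ISWI and INO80 type remodellers, 0 passed, with median log2 fold changes of -0.003, -0.09 and -0.15.

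Library cKO 1 was the lowest of the 8 libraries for 6 of the 10 BAF genes and the highest for Smarce1, and 22.3% of all genes tested were lowest in it. In these 6 genes cKO 1 stood at 68.0% (Arid1a) to 82.4% (Smarcc2) of the mean of the other 7 libraries, while Smarca2, Smarcb1 and Smarce1 stood at 103%, 97.2% and 111%. Long transcripts were low in cKO 1 in general. The 1125 genes of 6000 nt or more had a median log2 deviation of -0.27 in cKO 1 and of 0.005 to 0.07 in the other 7 libraries. Arid1a, Arid1b and Arid2, at abundance-weighted transcript lengths of 8046, 8166 and 7793 nt, are the longest BAF genes examined. Marker sums stood apart in cKO 1 as well, at 307 FPKM for the 6 interneuron genes against 145 to 210.1 FPKM in the other 7 libraries, and at 100.4 FPKM for 6 proliferation genes against 71.0 to 82.8 FPKM. The part of the library-wide slope and of these cells in the BAF values of cKO 1 was not tested. Without cKO 1 there were 0 members called, and 4 of 10 fold changes were positive.

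The balance between paralogs was compared as a log2 ratio in 6 pairs, among them the exchanged subunits Actl6a and Actl6b and Ss18 and Ss18l1. The ratio of Arid1a to Arid1b stood at 1.98 to 2.30 in wild type and at 1.97, 1.93, 1.93 and 1.67 in cKO 1 to 4. Every cKO library stood below every wild type library, the closest being wild type 2, at 1.98, and cKO 1, at 1.97. The mean log2 difference of -0.19 gave p = 0.0286 in a two-sided exact permutation test, the smallest p that 4 against 4 libraries allow, and 0.171 after adjustment over the 6 pairs. It did not pass.

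The other 5 pairs overlapped between genotypes. Smarca4 stood at 0.567 of Smarca2 in wild type and at 0.624 in the cKO (geometric means of 4, adjusted p = 0.486, exact permutation test). This ratio counts all Smarca2 transcripts. The full-length ones alone stood at 45.7 to 53.8 FPKM in wild type, and Smarca4 over all its transcripts at 54.0 to 72.4 FPKM. That sets a part of Smarca2 against the whole of Smarca4, so it does not order the ATPases. The main transcript Smarca4-204 alone stood at 38.6 to 52.0 FPKM in wild type. Smarcc1 stood at 0.338 and 0.309 of Smarcc2 (adjusted p = 0.4, exact permutation test), with the wild type libraries split into 1 and 2 above 3 and 4. The progenitor actin-related subunit Actl6a stood at 0.184 and 0.162 of its neuronal counterpart Actl6b (adjusted p = 0.343, exact permutation test). Ss18 stood at 0.220 and 0.229 of the neuronal Ss18l1, and Smarcd1 at 0.969 and 0.873 of Smarcd3 (adjusted p = 0.486 for both, exact permutation test).

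**Figure D2:**
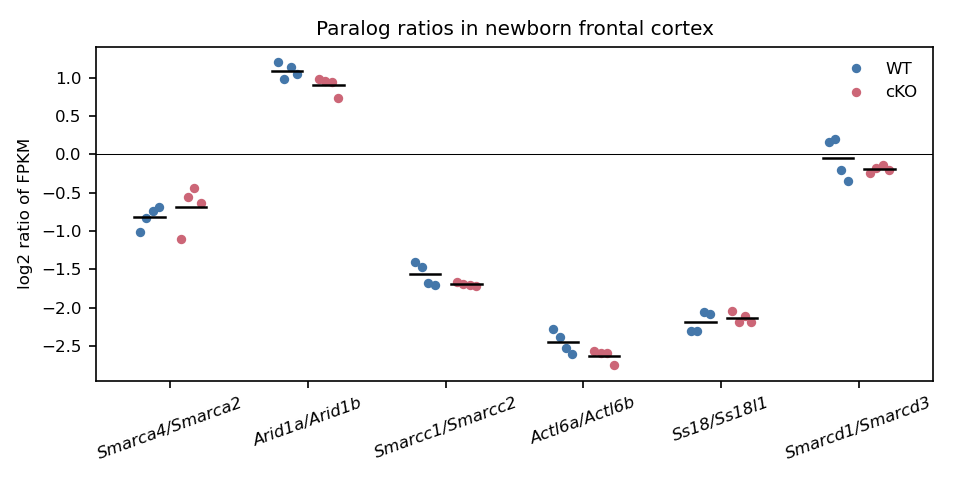
Log2 ratio of FPKM for 6 pairs of BAF paralogs in the 8 frontal cortex libraries, 1 point per library with black lines at group means (n = 4 each). Actl6b exceeds Actl6a and Ss18l1 exceeds Ss18 in all 8 libraries, and only for Arid1a/Arid1b among the 6 pairs do the groups not overlap.

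In the AUTS2 pull-down, RNAs of the ATPases and of Smarcc2 had the largest fold changes of the 10 BAF genes. Against IgG, which asks which RNAs the antibody recovers beyond background, 5 of the 10 were higher and 0 lower, where 13.7% of the 14570 genes tested were called higher and 9.69% lower (limma, as above). The median log2 fold change of the 10 was 0.40 against 0.02 for all genes. In 9 members both RIP libraries stood above both IgG libraries, as in 34.3% of all genes. In one direction or the other 64.4% of all genes were without overlap. With 2 libraries a group the count rests on each of them. Leaving out any 1 of them left fewer members called higher, and fewer of all genes. The median log2 fold change of the 10 was then 0.40 (without RIP A), 0.41 (RIP B), 0.38 (IgG A) and 0.46 (IgG B).

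Smarca2 stood at 318 and 285 FPKM in RIP A and B and at 149 and 123 FPKM in IgG A and B. RIP was higher in both trios, by 1.14 on the log2 scale (SE 0.13, adjusted p = 0.0037, limma). The protein-coding transcripts of Smarca2 alone stood at 137 and 135 FPKM in RIP and at 94.9 and 64.8 FPKM in IgG. Smarca4 stood at 213 and 222 FPKM in RIP and at 106 and 92.4 FPKM in IgG (log2 1.13, SE 0.11, adjusted p = 0.0030, limma). Smarcc2 stood at 295 and 280.4 FPKM against 164 and 150.3 FPKM (log2 0.87, SE 0.10, adjusted p = 0.0039, limma). Each of these 3 calls was lost without IgG A, at an adjusted p of 0.0503, where 0 genes of the whole table were called, and was kept in the other 14 settings tried.

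Smarcb1 and Arid1b were also higher, at smaller fold changes. Smarcb1 stood at 42.1 and 44.5 FPKM in RIP and at 28.0 and 28.3 FPKM in IgG (log2 0.60, SE 0.12, adjusted p = 0.0161, limma). Arid1b stood at 68.7 and 63.9 FPKM against 50.0 and 50.8 FPKM (log2 0.39, SE 0.11, adjusted p = 0.0457, limma). Both calls were lost without any 1 of the 4 libraries, at adjusted p-values of 0.0568 to 0.125 for Smarcb1 and 0.0943 to 0.277 for Arid1b (limma), and were kept in 7 and 4 of 15 other settings. With the trio as a block the adjusted p of Arid1b was 0.0576 and that of Smarcc1 0.0433, so that the count stayed at 5.

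The remaining 5 did not pass against IgG. Smarcc1 stood at 86.2 and 90.5 FPKM in RIP and 61.0 and 71.8 FPKM in IgG (log2 0.41, adjusted p = 0.0543, limma), and Smarce1 at 62.1 and 63.1 against 50.9 and 47.5 FPKM (log2 0.34, adjusted p = 0.0651, limma). Arid2 stood at 40.7 and 41.8 against 31.9 and 34.6 FPKM (log2 0.30, adjusted p = 0.112, limma). Arid1a stood at 149.6 and 156 FPKM in RIP and at 147 and 134 FPKM in IgG (log2 0.12, adjusted p = 0.410, limma). Bcl11a stood at 106 and 120.3 against 110.0 and 105 FPKM, with overlap (log2 0.07, adjusted p = 0.680, limma).

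Against input, 7 BAF genes were higher and Smarce1 was lower. Of the 14458 genes tested 19.3% were called higher and 16.6% lower, and 71.1% were without overlap between the groups, as were 9 of the 10 members. The RIP libraries are the same as in the comparison with IgG, scaled by 1.018 for A and about 1.015 for B, so the comparisons are not independent. The median log2 fold change of the 10 was 0.72 against -0.02 for all genes.

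Smarca4 stood at 217 and 225 FPKM in RIP and at 64.2 and 62.9 FPKM in input, which is 1.78 on the log2 scale (SE 0.09, adjusted p = 0.000677, limma). Smarcc2 stood at 301 and 285 FPKM against 96.6 and 95.5 FPKM (log2 1.60, SE 0.08, adjusted p = 0.000677, limma). Smarca2 stood at 323 and 289.5 against 129 and 101 FPKM (log2 1.42, SE 0.14, adjusted p = 0.0016, limma). These 3 genes were thus about 2.7-fold to 3.5-fold above input as ratios of mean FPKM, and their calls held in all 15 other settings tried. The value of Smarca2 includes non-coding transcripts, and only 43.0% and 47.4% of it in RIP lay in protein-coding ones. These stood at 139 and 137 FPKM in RIP and at 59.5 and 80.3 FPKM in input.

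The ARID genes were higher than input as a group of 3. Arid1a stood at 152 and 159 FPKM against 76.3 and 94.9 FPKM (log2 0.86, adjusted p = 0.0048, limma). Arid1b stood at 69.98 and 64.9 against 41.2 and 35.5 FPKM (log2 0.80, adjusted p = 0.0052, limma), and Arid2 at 41.5 and 42.4 against 27.1 and 26.1 FPKM (log2 0.64, adjusted p = 0.0086, limma). Arid1a was therefore called above input and not above IgG. Smarcc1 stood at 87.7 and 91.8 against 55.5 and 59.8 FPKM (log2 0.63, adjusted p = 0.0060, limma). Without RIP A the calls of Arid1a, Arid1b, Arid2 and Smarcc1 were lost. Without either RIP library fewer members were called higher, and fewer of all genes. The median log2 fold change of the 10 was 0.71 without RIP A and 0.73 without RIP B.

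Smarce1 stood at 63.2 and 64.1 FPKM in RIP and at 81.7 and 86.0 FPKM in input (log2 -0.39, SE 0.10, adjusted p = 0.0244, limma). It was lower than input in both trios while standing above IgG in both, and the call was lost without any 1 of the 4 libraries (adjusted p = 0.0578 to 0.137, limma). Smarcb1 stood at 42.9 and 45.2 against 45.1 and 45.2 FPKM (log2 -0.04, adjusted p = 0.807, limma), although it was higher against IgG. Bcl11a stood at 108 and 122 against 98.3 and 100.5 FPKM (log2 0.20, adjusted p = 0.173, limma).

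**Figure D3:**
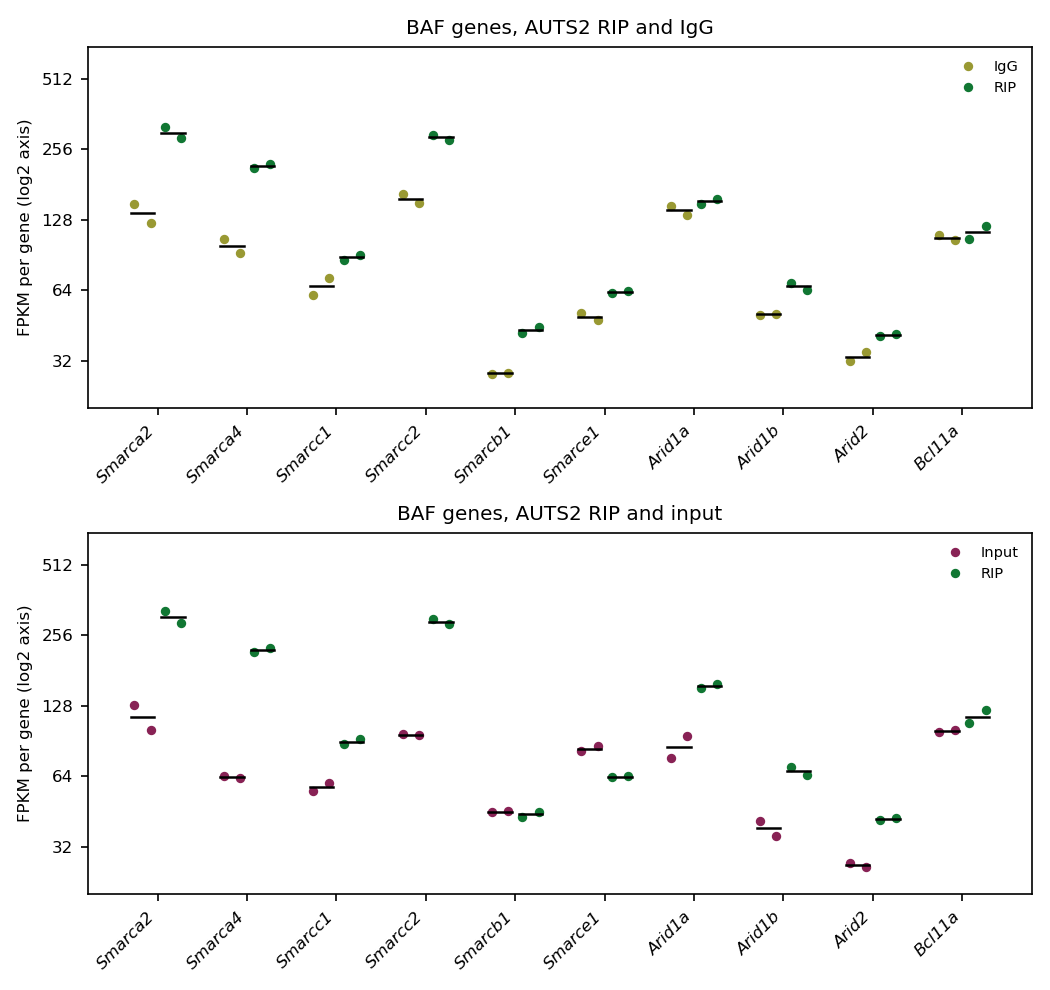
FPKM (log2 axis) of the 10 BAF genes in AUTS2 RIP and IgG (upper panel) and in AUTS2 RIP and input (lower panel), 1 point per library with black lines at the means of 2. Smarca2, Smarca4 and Smarcc2 stand clear of both controls, and Smarce1 stands above IgG and under its input.

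Recovery in the pull-down moved with transcript length. Against IgG the median log2 fold change was -0.11 for genes with transcripts under 2000 nt and 0.30 for those of 6000 nt or more, of which 33.6% were called higher. Against input the medians were -0.27 and 0.47, with 44.2% called higher in the long class. Smarca2, at a weighted length of 2922 nt, Smarcc2, at 3904 nt, and Smarca4, at 5276 nt, stood above the medians of their length classes, whereas Arid1a and Bcl11a stood close to or below theirs against IgG. Across the 10 members Spearman's rho between length and log2 fold change was -0.345 against IgG and 0.43 against input, and across all genes 0.206 and 0.297. These points share libraries, and genes are not independent replicates.

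With the trend of fold change on length and GC content removed, 3 members were higher and 1 lower than IgG, with 9.23% and 6.78% of all genes. The 3 were Smarca2 (log2 1.09, adjusted p = 0.0080, limma), Smarca4 (log2 0.63, adjusted p = 0.0181, limma) and Smarcc2 (log2 0.54, adjusted p = 0.0220, limma). Arid1a turned to -0.42 (adjusted p = 0.0446, limma), a call that was lost with the trio as a block (adjusted p = 0.0524, limma), and Arid1b to -0.20 (adjusted p = 0.265, limma). Bcl11a turned negative too and was not called, which left 7 of the 10 positive against IgG. Against input 4 were higher, Smarca2, Smarca4, Smarcc2 and Smarcc1, at log2 fold changes of 1.40, 1.01, 1.10 and 0.50, and Smarce1 was lower at -0.39, where 13.6% and 11.9% of all genes were called. All 3 ARID genes lost their call against input, at 0.01 for Arid1a, -0.11 for Arid1b and 0.35 for Arid2.

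**Figure D4:**
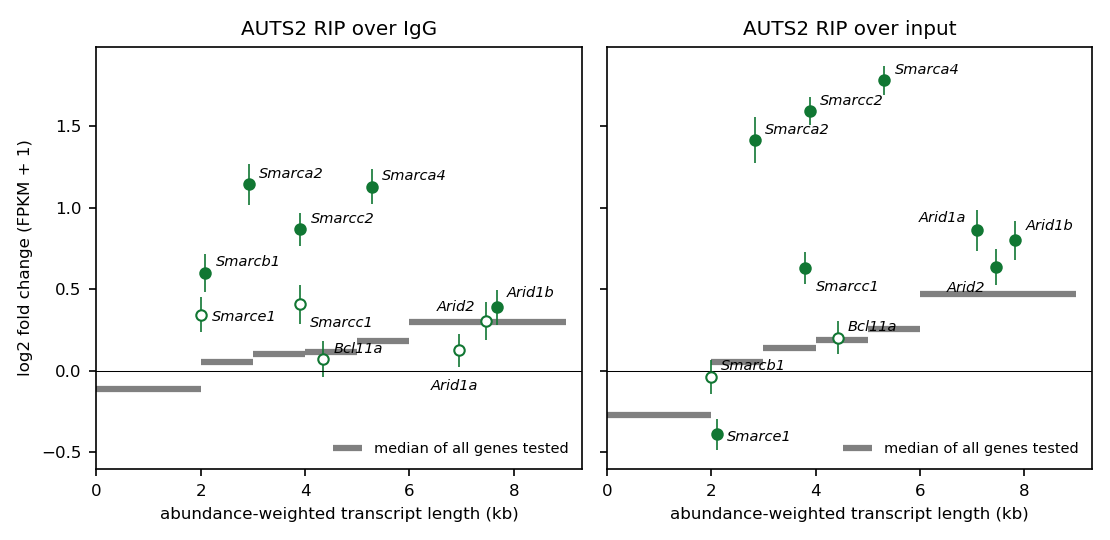
Log2 fold change of the 10 BAF genes in AUTS2 RIP over IgG (left) and over input (right) against abundance-weighted transcript length in kb, with bars for the SE and filled points for called genes. Grey segments are medians of all genes tested in 6 length classes, the longest class drawn to 9 kb. Smarca2, Smarca4 and Smarcc2 lie well above the grey segments in both panels.

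Of 21 other BAF genes 3 were higher than IgG, a share close to the 13.7% of all genes, namely Brd9 of the non-canonical BAF complex (138 against 45.1 FPKM, log2 1.58), Brd7 of PBAF (47.5 against 19.3 FPKM, log2 1.26) and Smarcd3 (49.1 against 35.0 FPKM, log2 0.48). Against input 6 were higher, the largest being Brd9 (log2 1.38), Brd7 (1.31), Bicra (1.13) and Dpf2 (1.01), and Actb was lower (-0.35). The median log2 fold change of the 21 against IgG was 0.13, with 15 positive, and with the length and GC trend removed it was -0.06, with 8 positive. Of 9 CHD genes, whose products are separate ATP-driven remodellers, 8 were higher than IgG and 9 than input, with median log2 fold changes of 0.99 and 1.38, where 13.7% and 19.3% of all genes were called higher. Chd8, an autism gene, stood at 121 FPKM in RIP against 50.5 FPKM in IgG (log2 1.24), and Chd7 at 51.0 against 12.1 FPKM in input (log2 2.00). Of 14 ISWI and INO80 type genes 9 and 11 were higher, with medians of 0.84 and 1.14 and Baz2a at 1.44 and 1.87. With the length and GC trend removed, 7 CHD genes were higher than IgG and 8 than input, with medians of 0.67 and 1.11. Of the ISWI and INO80 type genes 8 and 11 were then higher, with medians of 0.72 and 0.83. In that setting 9.23% and 13.6% of all genes were called higher. Whether these lists differ was not tested.

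Sums of several cell type marker lists also differed between the fractions without overlap. With 2 libraries a group 64.4% of all single genes did so against IgG and 71.1% against input. RIP against IgG stood at 89.2 to 95.8 and 53.3 to 63.5 FPKM for proliferation genes, at 122 to 132 and 77.5 to 101 FPKM for striatal genes, at 73.7 to 77.9 and 58.8 to 61.9 FPKM for oligodendrocyte genes and, in the other direction, at 11.2 to 12.2 and 14.6 to 21.2 FPKM for microglial genes. Against input these 4 lists also differed without overlap and in the same directions. RIP further stood above input for cortical neuron genes (762 to 804 against 660.0 to 672 FPKM), and below it for radial glia (271 to 288 against 384 to 431 FPKM), endothelial (19.2 to 23.0 against 28.1 to 31.5 FPKM) and red blood cell genes (19.1 to 39.3 against 67.0 to 77.3 FPKM). The part of these in the BAF values was not tested. Ratios of paralogs, given as values since 2 libraries a group allow no useful permutation test, differed between fractions for the scaffold pair. Smarcc1 stood at 0.292 and 0.323 of Smarcc2 in RIP, at 0.371 and 0.478 in IgG and at 0.574 and 0.626 in input. The ratio of Smarca4 to Smarca2 was 0.671 and 0.777 in RIP, 0.708 and 0.749 in IgG and 0.497 and 0.625 in input.

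At the level of single transcripts, 0 of 37 tested BAF transcripts differed between cKO and wild type, where 0.00374% of 26722 were called, and 2 had an unadjusted p under 0.05, against 5.66% of all. These were Bcl11a-204, a short coding transcript of 1505 nt (25.4 against 20.5 FPKM in wild type, log2 0.29), and Smarca2-209. Against input 11 of 62 were higher and 0 lower, with backgrounds of 4.48% and 2.36%. They include all 3 Smarca4 transcripts tested, Smarca4-202, Smarca4-203 and Smarca4-204, at log2 fold changes of 1.71, 2.11 and 1.67, and the main coding transcripts of Arid1a (Arid1a-205, 0.96), Smarcc1 (Smarcc1-201, 0.89) and Smarcc2 (Smarcc2-202, 1.69). With the trio as a block 0 members were called in either direction, where 0% of all transcripts were called higher and 0.00962% lower, and without any 1 of the 4 libraries 0 member transcripts were called. Against IgG 0 of 61 transcripts and 0 of all 31647 were called by limma, with 28 members at an unadjusted p under 0.05 (22.6% of all transcripts). Among transcripts with a mean of at least 5 FPKM, 11 were higher and 1 lower than IgG of 42, against 11.3% and 4.77% of all, and 14 were higher and 3 lower than input of 37, against 17.6% and 10.6% of all.

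Smarca2 was the BAF gene with the most annotated transcripts, 46, and they did not move together. They were put into classes by start and extent after their values were seen. The 4 full-length transcripts summed to 45.7 to 53.8 FPKM in wild type against 37.1 to 50.6 FPKM in the cKO, and 17 transcripts from an internal start near the 3′ end of the gene to 29.1 to 39.6 and 32.9 to 43.3 FPKM. In the pull-down the full-length class stood at 105 and 117 FPKM in RIP, at 50.3 and 42.2 FPKM in IgG and at 28.8 and 32.9 FPKM in input, the last in a separately scaled table. The internal-start class stood at 37.3 and 25.5 FPKM in RIP, at 41.1 and 19.8 FPKM in IgG and at 40.7 and 17.7 FPKM in input. The other 25 transcripts stood at 175 and 143 FPKM in RIP, at 57.6 and 61.4 FPKM in IgG and at 59.6 and 50.0 FPKM in input. Both the full-length class and these other transcripts were thus above both controls in both trios, and the internal-start class overlapped with both.

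**Figure D5:**
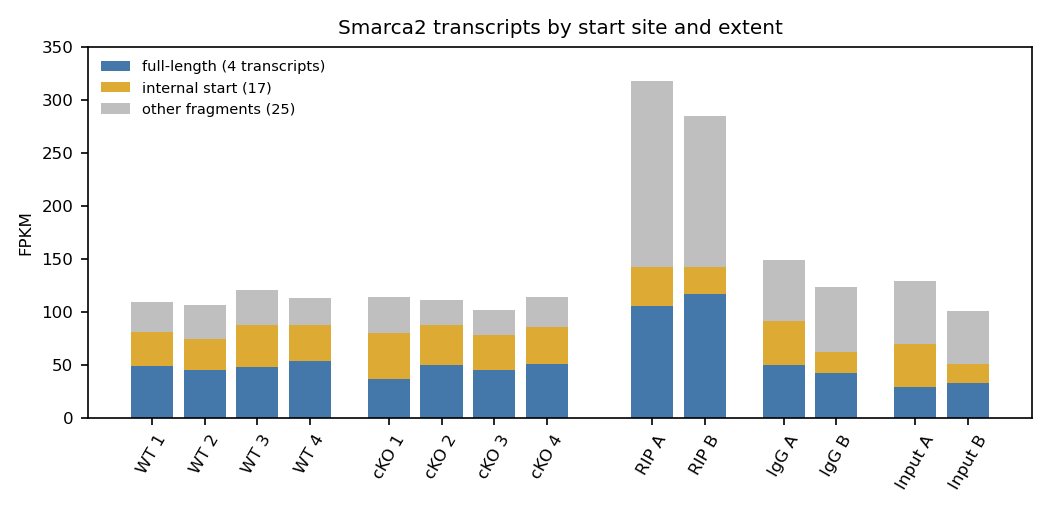
FPKM of Smarca2 transcripts, stacked by class, in the 8 frontal cortex libraries and in the AUTS2 RIP, IgG and input libraries of trios A and B. RIP and IgG values come from the table with IgG and input values from the separately scaled table with input. The full-length class (blue) reaches 105 and 117 FPKM in RIP and 53.8 FPKM at most elsewhere, and the other transcripts (grey) reach 175 and 143 FPKM in RIP.

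Several BAF transcripts differ from each other by a short in-frame coding segment, and these segments are shown because they tell apart the isoforms whose values follow. They were chosen after the values were seen and read from the GRCm38 genome, 5′ to 3′ on the strand of the gene. Capitals mark the alternative segment, and lower case the 20 bases on either side in the longer transcript. The segment of Smarca2 is at chr19:26759878-26759931 (plus strand, 54 nt, 18 codons), that of Smarcc2 at chr10:128481682-128481774 (plus strand, 93 nt, 31 codons) and that of Smarcb1 at chr10:75916773-75916799 (minus strand, 27 nt, 9 codons).
Smarca2: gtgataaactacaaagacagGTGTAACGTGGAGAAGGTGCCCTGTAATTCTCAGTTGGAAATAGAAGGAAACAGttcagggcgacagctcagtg
Smarcc2: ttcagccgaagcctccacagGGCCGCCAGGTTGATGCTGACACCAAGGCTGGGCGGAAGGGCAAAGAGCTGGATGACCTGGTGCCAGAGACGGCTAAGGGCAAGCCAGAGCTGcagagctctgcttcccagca
Smarcb1: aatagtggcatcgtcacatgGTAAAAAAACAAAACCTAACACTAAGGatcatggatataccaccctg

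The Smarca2 segment is carried by 6 coding transcripts and lacking in 17. The transcripts with the segment held 18.1%, 19.0%, 16.2% and 15.9% of the summed FPKM of these transcripts in wild type and 11.9%, 9.99%, 14.5% and 14.9% in the cKO. All cKO libraries stood below all wild type libraries, a difference found after looking and not tested as a share. Most of it is Smarca2-209, the 34-exon transcript that carries the segment, at 14.3, 14.1, 13.96 and 13.8 FPKM in wild type and 9.27, 8.56, 11.4 and 11.9 FPKM in the cKO (log2 fold change -0.43, SE 0.11, unadjusted p = 0.0030, adjusted p = 0.828, limma). The groups did not overlap, as for 3.55% of all transcripts. Smarca2-201, the 33-exon transcript without the segment, stood at 29.4 to 37.5 FPKM in wild type against 25.8 to 39.0 FPKM in the cKO.

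In the pull-down the share with the Smarca2 segment was 12.1% and 4.94% in RIP, 30.7% and 50.7% in IgG and 24.3% and 41.2% in input. RIP stood below both controls in both trios, and in each of IgG and input the trios differed widely. Smarca2-201 stood at 55.2 and 72.2 FPKM in RIP and at 1.40 and 0.16 FPKM in IgG, and at 56.1 and 73.3 FPKM in RIP against 0.01 and 0.10 FPKM in input. The log2 fold change over input was 5.95 (SE 0.23, adjusted p = 0.0298, limma). The same transcript held 29.4 FPKM or more in every wild type cortex library. A value near 0 can be a failed split of reads between transcripts that share nearly all their exons, so this transcript should be read beside the class sum. The same holds for the shares with the segment in IgG and input, whose denominators contain this transcript at nearly 0.

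The other segments overlapped between the genotypes. The Smarcc2 segment made up 38.7% to 50.9% of coding FPKM in wild type, 45.3% to 55.3% in the cKO, 38.6% and 36.7% in RIP, 39.7% and 42.8% in IgG and 30.1% and 37.8% in input. The Smarcb1 segment, which distinguishes the long and short forms of BAF47, made up 65.5% to 81.6% in wild type, 71.6% to 79.0% in the cKO, 79.0% and 79.4% in RIP, 64.6% and 76.9% in IgG and 86.0% and 99.996% in input. RIP thus stood below IgG for the Smarcc2 segment, and above IgG and below input for the Smarcb1 segment, and these differences were not tested. The Smarcb1 transcript without the segment stood at 6.05 FPKM in input A and at 0.0018 FPKM in input B. The share in input B can therefore also rest on a failed split of reads.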

How the data were processed

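RNA of rostral cortex was sequenced after polyA selection with a TruSeq kit, and total RNA of the pull-down with a stranded SMARTer kit, per the labels' protocols. The deposited values are FPKM per transcript, made by the authors with STAR 2.5, SAMtools and Cuffdiff 2.2.1 on GRCm38.p4 (mm10), per the submitters' processing notes, with GENCODE vM14 transcripts, per the file headers. Cuffdiff splits reads between overlapping isoforms, so single-transcript values are less certain than gene sums. Each of the 3 tables was scaled separately, and tests stay within a table. No columns were left unused. Depth cannot be recovered from these estimates.

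Transcripts were matched to GENCODE vM21 (127975 of 128508) for symbols, exons and sequence and summed per symbol. For genes or transcripts with a mean of at least 1 FPKM, limma 3.58.1 (R 4.3.3) was run on log2(FPKM + 1), with variance trend and robust moderation, two-sided, with Benjamini-Hochberg adjustment at 0.05 over the whole table. Fold changes on this scale understate the change of low genes. Paralog ratios were tested by exact permutation over all 70 splits of 4 against 4 (scipy 1.17.1). The fit was tested on simulated data. Python 3.11.15, pandas 2.3.3, numpy 2.4.6 and matplotlib 3.10.9 made tables and figures.

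Alternatives were pseudocounts of 0.1 and 5, no filter or a mean of 5 FPKM, median-ratio and quantile scaling, limma without trend, protein-coding transcripts only, leaving out each library (and wild type 1 and 2 together), Xist state as a covariate, removal of the length and GC trend (loess, span 0.3) and a replicate block. Same-numbered wild type and cKO libraries deviated together at r = 0.176, 0.0173, -0.0394 and 0.0659. The labels give no shared litter for them, and they were not treated as pairs in the main fit. The RIP, IgG and input trios are paired by the series design, and their deviations correlated at 0.00879 (IgG) and 0.012 (input). Since trios known to be paired gave values this low, the correlation cannot decide whether the cortex libraries are paired.

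Named are all 10 members, Auts2 as the check, members' transcripts, the largest rises and falls among called genes of other BAF subunits, and at most 2 genes of each other remodeller list. Bcl11b, Brd7 and Bcl7a in the cKO, the Smarca2 transcript classes and the alternative segments were chosen after their values were seen. The members and lists were chosen with earlier results of these data known. Gltscr1 and Gltscr1l are listed under their current symbols Bicra and Bicral.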

Additional observations from a re-analysis of the deposited data

Results flagged for a closer look

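A library far from the other 3 of its group was found in 7 of 34 groups of 4 examined (by Dixon's test at the 95% level). Chance gives about 1 in 20 for independent groups. These groups are genes and ratios in the same 8 libraries and are not independent, so no excess over chance can be read from the count. Of the 7, 4 were low values in cKO 1. Arid1b stood at 11.7 FPKM there and at 17.2 to 18.2 FPKM in the other cKO libraries, Smarca4 at 53.1 against 73.8 to 76.1 FPKM, Smarcc1 at 32.3 against 38.6 to 39.9 FPKM, and Smarcc2 at 103 against 125 to 129 FPKM. Arid1b was also high in wild type 2, at 18.4 FPKM against 15.4 to 15.7 FPKM. In cKO 4 the log2 ratio of Arid1a to Arid1b was 0.74, against 0.95 to 0.97 in the other cKO libraries, and that of Actl6a to Actl6b was -2.75, against -2.59 to -2.56.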

How the results depend on the processing

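In the cKO comparison 0 members and 0 member transcripts were called in every setting tried, and 10 recomputed member fold changes, none of them called, changed sign. Against IgG the 5 members called higher became 3 under quantile normalization, 3 without the variance trend, 3 with the length and GC trend removed and 3 with that removal and the trio block together. In these settings 9.38%, 6.47%, 9.23% and 9.33% of all genes were called higher, against 13.7% in the main fit. The count was 4 without the filter and 4 under median-ratio scaling, with 5.27% and 12.1% of all genes. It rose to 6 with protein-coding transcripts only and to 7 with a mean of at least 5 FPKM, with 18.1% and 24.4% of all genes. Fewer members and fewer of all genes were called higher when any 1 library was left out. Members lower than IgG numbered 1 (Arid1a) with the length and GC trend removed and 0 with the block added to that removal. With the trend removed Arid1a turned to -0.42 and Arid1b to -0.20 (-0.20 with the block too), and Bcl11a, not called, was negative as well. Against input the 7 members called higher became 4 with the length and GC trend removed, with or without the block. Arid1b turned to -0.11 in both fits. Of all genes 13.6% were called higher without the block and 13.2% with it, against 19.3% in the main fit. Under quantile normalization 6 members were higher than input, with 17.7% of all genes. Fewer members and fewer of all genes were called higher without either RIP library. Without either input library the number of members called higher did not change, and fewer of all genes were called higher. The lower call of Smarce1 was lost (0 members) without the variance trend and without each library in turn (0 in each case). Among transcripts with a mean of at least 5 FPKM, 11 were higher and 1 lower than IgG, and 14 were higher and 3 lower than input. The 11 transcripts higher than input became 0 under the replicate block and 0 without any 1 library. The replicate block changed no count of called members in the main fits, which stayed at 0, 5 and 7 higher. With the number as a block in the cKO comparison, where pairing is not known, 0 members were called. The cause of these differences was not tested. Where leaving out a library left a lone sample in a group, it was assumed to vary like the other group. Depth is unknown, and with 2 libraries per group small differences cannot be resolved.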
